A study of Mus musculus with 12 samples.

Results

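The effect of complex I inhibition was taken in OHT-primed FL MycER cells, as the difference between 3 OHT_IACS libraries and 3 OHT libraries. All genes with a RPKM value (reads per kilobase of gene, scaled to the library total) of at least 1 in at least 3 of the 12 libraries of the series were included, which left 9745 of 21671 genes (44.97%). FL5.12 is an established murine lymphoid precursor line that grows in interleukin 3 (IL-3). FL MycER cells are its antibiotic-selected derivative carrying a retrovirus that expresses MycER, a MYC protein fused to a hormone-binding domain that becomes active when 4-hydroxytamoxifen (OHT) is added. OHT libraries came from cells kept in 100 nM OHT for 72 h. OHT_IACS libraries came from cells that had 48 h of OHT alone and then 24 h of OHT together with 135 nM IACS-010759. The contrast therefore holds MycER activity in both groups and changes only the inhibitor. The remaining libraries, 3 untreated and 3 with IACS-010759 for 24 h and no OHT (IACS), entered the same fit and served to measure the response in nonprimed cells. All cells carried the retrovirus, so that no library represents FL5.12 without MycER, and before exposure to IACS-010759 the cells were passaged in medium of reduced glucose content.

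IACS-010759 blocks complex I, the entry point of electrons from NADH into the electron transport chain (ETC). Cells under ETC blockade reoxidize less NADH, make less ATP and aspartate in mitochondria and lean on glycolysis. Mitochondrial damage is relayed to the cytosol by the protease OMA1 and its substrate DELE1 to kinases of eIF2alpha, and phosphorylated eIF2alpha slows general translation while raising that of ATF4. This sequence is the Integrated Stress Response (ISR), and ATF4 with its C/EBP partners then drives genes of amino acid uptake and synthesis, tRNA charging and, under lasting stress, cell death. Sterol synthesis is under a separate control, the SREBP factors, which INSIG proteins hold back when sterols suffice.

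The library totals behind the RPKM values were 10376530, 13956222 and 10770476 reads in OHT replicates 1, 2 and 3 and ran from 11792608 to 11913079 in the OHT_IACS libraries. OHT replicate 2 stood apart from the other OHT libraries, with a chi-square per gene of 5.115 against replicate 1 and 2.72 against replicate 3, where sampling noise alone gives about 1, and 1.15 to 1.37 among the OHT_IACS libraries. Counts of the gene lists that change by more than 1.5-fold without it are therefore given both ways. Reads of abundant genes did not follow the library total in proportion. Within groups, the median slope of log2 reads on log2 total was 1.39 for 4373 genes of 0.01 to 0.1 reads per base. It was 0.184 for 84 genes over 1 read per base. Library totals spread most among the OHT libraries, and whether changes of abundant transcripts are compressed was not tested. Of the B lineage markers, Cd79a, Cd79b, Ikzf1, Ptprc and Tcf3 were tested, while Pax5, Ms4a1, Blnk, Rag1, Il7r, Dntt, Igll1 and Vpreb2 were listed at 0 reads in all 6 libraries compared. A listed 0 need not mean that a gene is silent, since Hmgcs1, an enzyme of the sterol pathway whose other members were read, was also listed at no more than 1 read.

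IACS-010759 changed 2310 of the 9745 genes (23.7%) in OHT-primed cells. Of these differentially expressed genes (DEGs, limma with Benjamini-Hochberg adjusted p under 0.05), 1164 (11.9% of the genes tested) rose and 1146 (11.8%) fell. Counts of members called in each gene list are to be read beside these shares. Rises were larger than falls, with a median of 0.36 on the log2 scale among the DEGs that rose and 0.26 among those that fell. A change of at least 2-fold was reached by 52 DEGs that rose and 10 that fell, and a change of at least 1.5-fold by 231 and 54. The DEGs that rose had a lower median level in the OHT libraries (5.76 RPKM) than those that fell (14.2 RPKM). The 3 OHT and 3 OHT_IACS libraries did not overlap in 3596 genes (36.9%), 1730 of them higher and 1866 lower with the inhibitor. Among the DEGs the groups did not overlap in 2216 (95.9%), so that a lack of overlap adds little to a call. The largest rises and falls were named only where the groups did not overlap, which is therefore no added result for them. The number of DEGs was 1521 without OHT_IACS replicate 3 and 2995 without OHT replicate 2. Of the 2310 DEGs, 2070 kept their call without OHT replicate 2.

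**Figure D1:**
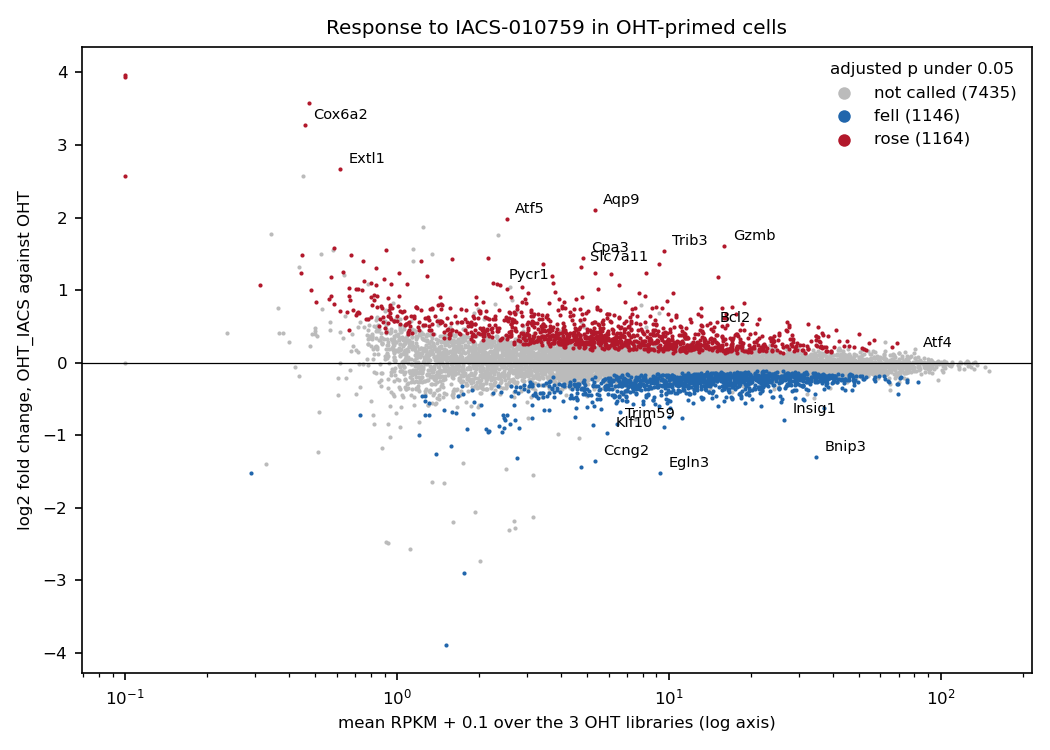
Log2 fold change in OHT_IACS against OHT (vertical axis) plotted on the mean RPKM of the 3 OHT libraries plus 0.1 (horizontal log axis) for the 9745 genes tested, with the 1164 DEGs that rose in red and the 1146 that fell in blue. The points furthest from 0 at the left edge are genes of at most 4 reads, and the spread narrows towards abundant genes such as Atf4.

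The regulators of the ISR rose as a group: 13 of 20 tested members (65%) were DEGs that rose and none fell, beside 11.9% of all genes tested that rose, and the median log2 fold change was 0.37 against -0.01 over all genes. Trib3, a pseudokinase induced by ATF4 that restrains it, stood at 8.03, 11.8 and 8.56 RPKM in the 3 OHT libraries and at 26.3, 28.0 and 27.5 RPKM with OHT_IACS. All OHT_IACS libraries lay above all OHT libraries, and OHT replicate 2 was the highest of its group. The log2 fold change was 1.54 (standard error 0.10, adjusted p = 5.7e-07). Atf5, a transcription factor of the mitochondrial stress response, had the largest rise of the list, from 1.84, 3.06 and 2.42 RPKM to 8.63, 10.5 and 10.1 RPKM. Its log2 fold change was 1.98 (standard error 0.13, adjusted p = 5e-07) and its libraries did not overlap either. Ddit3, which encodes the pro-apoptotic factor CHOP, was measured at 7.97, 10.2 and 8.42 RPKM in OHT and at 14.6, 15.6 and 14.8 RPKM in OHT_IACS. That is a log2 fold change of 0.76 (standard error 0.07, adjusted p = 5.7e-06), again without overlap. Nupr1, a stress-induced chromatin protein, rose by 1.36 on the log2 scale (standard error 0.10, adjusted p = 1.3e-06).

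The other regulators that rose were Jdp2, a bZIP repressor (1.01), Sesn2, an inhibitor of mTORC1 (0.83), Nfe2l1 (0.51), Oma1 (0.50), Ddit4 (0.47), the C/EBP partners Cebpg (0.38) and Cebpb (0.35), Dele1 (0.17) and the eIF2alpha phosphatase subunit Ppp1r15b (0.13), all as log2 fold changes. The list had 14 rises and 1 fall without OHT replicate 2. The mRNA of Atf4 itself did not pass the test. It lay at 83.9, 70.6 and 85.4 RPKM in OHT and at 86.1, 90.0 and 85.5 RPKM in OHT_IACS, at a log2 fold change of 0.13 (standard error 0.09, adjusted p = 0.29) that was 0.03 without OHT replicate 2. Atf4 was abundant, at 0.98 reads per base. The library total as a covariate gave an adjusted p of 0.00023 (limma), and quantile normalization also called it. Whether its abundance takes part in this was not tested. None of the eIF2alpha kinases passed the test: the log2 fold changes were -0.27 for Eif2ak3 (PERK), -0.13 for Eif2ak2 (PKR), -0.07 for Eif2ak1 (HRI) and 0.06 for Eif2ak4 (GCN2). Atf3, Chac1 and Gdf15 were listed at no more than 1 read in the 6 libraries, and Fgf21, a hormone of mitochondrial stress, at 0 reads in OHT and at up to 8 reads in OHT_IACS.

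**Figure D2:**
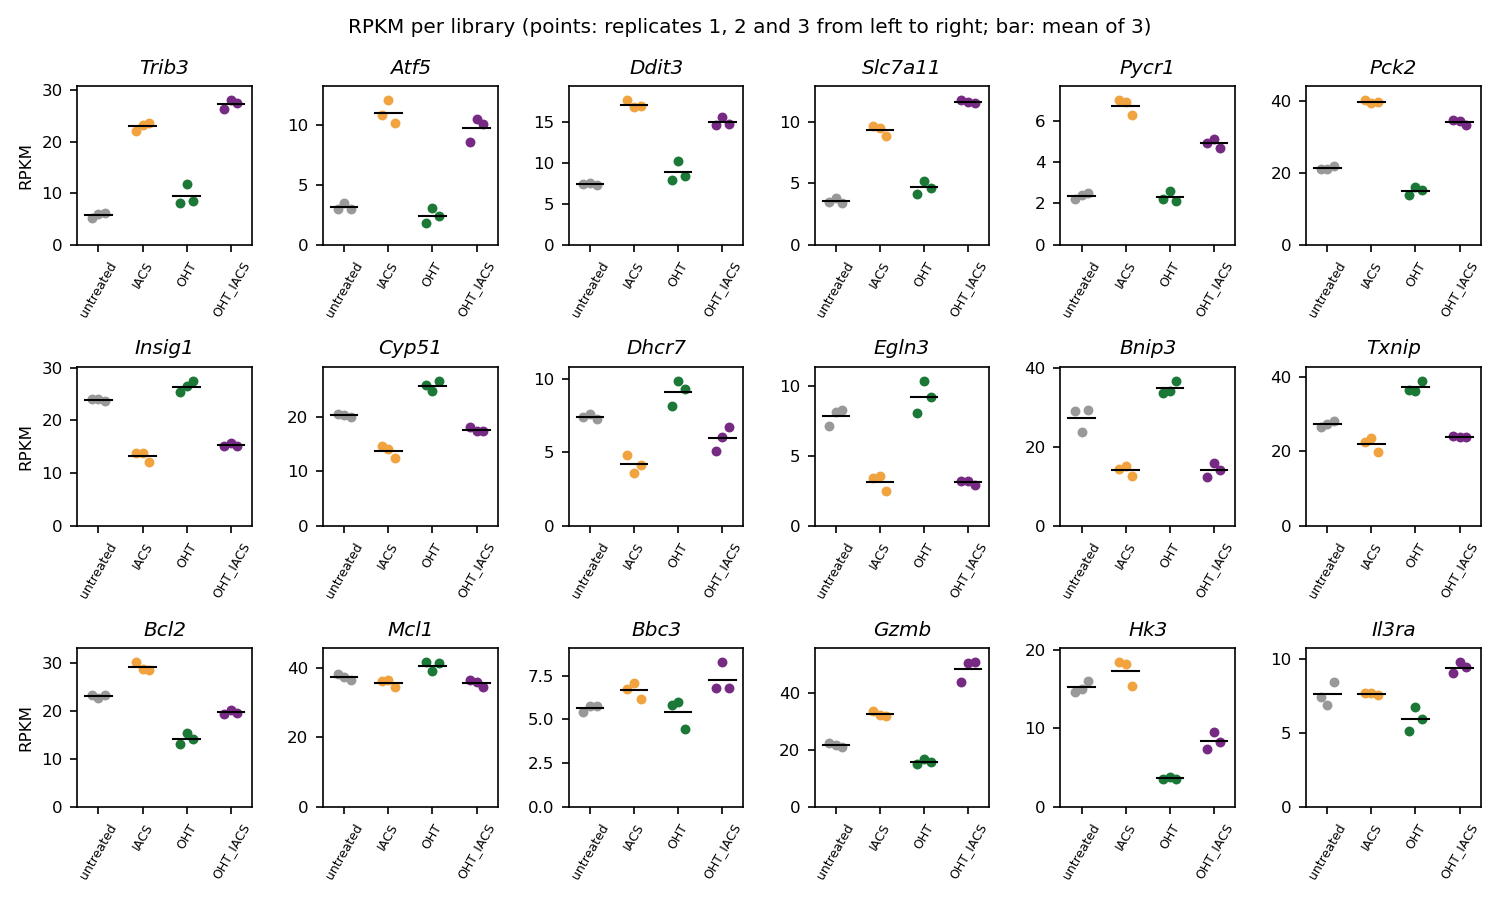
RPKM (vertical axes, from 0) of 18 genes in each of the 12 libraries, with replicates 1, 2 and 3 from left to right in each group and a bar at the mean of 3. Trib3, Atf5, Ddit3, Slc7a11, Pycr1 and Pck2 are higher and Insig1, Cyp51, Dhcr7, Egln3, Bnip3 and Txnip lower in every OHT_IACS library than in every OHT library.

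Among enzymes of amino acid and one-carbon metabolism, 6 of 19 tested members rose (31.6%) and 3 fell, with a median log2 fold change of 0.10. The number that fell was 5 and the median -0.004 without OHT replicate 2. Pck2, the mitochondrial enzyme that makes phosphoenolpyruvate, rose from 13.9, 16.0 and 15.2 RPKM to 34.6, 34.3 and 33.3 RPKM, a log2 fold change of 1.18 (standard error 0.05, adjusted p = 2.7e-09). Pycr1, the last step of mitochondrial proline synthesis, rose by 1.07 (standard error 0.08, adjusted p = 1.8e-06), from 2.21, 2.57 and 2.11 RPKM to 4.94, 5.13 and 4.67 RPKM. Gpt2, the mitochondrial alanine transaminase, rose by 0.76 (adjusted p = 1.5e-07). In all 3 genes every OHT_IACS library lay above every OHT library. The other rises were those of Asns, the asparagine synthetase (0.32), Aldh18a1, the entry step of proline synthesis (0.30), and the mitochondrial folate enzyme Mthfd2 (0.27). The serine synthesis branch moved otherwise: Psph, its last enzyme, fell by 0.50 on the log2 scale, while Phgdh (0.13) and Psat1 (0.05) did not pass the test. Asns and Psat1 are abundant, at 0.73 and 0.83 reads per base.

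Amino acid transporters of the plasma membrane rose in 11 of 14 tested members (78.6%), with a median log2 fold change of 0.34. Slc7a11, the cystine importer that feeds glutathione synthesis, stood at 4.12, 5.24 and 4.65 RPKM in OHT and at 11.8, 11.7 and 11.6 RPKM in OHT_IACS. The log2 fold change was 1.31 (standard error 0.07, adjusted p = 1e-07), and the groups did not overlap. Slc6a9, a glycine transporter, rose by 1.36 (standard error 0.13, adjusted p = 9.2e-06) and Slc1a4, a carrier of alanine and serine, by 0.97 (adjusted p = 2.7e-07). Both parts of the large neutral amino acid exchanger rose, Slc7a5 by 0.45 and Slc3a2 by 0.29, as did the arginine carriers Slc7a7 (0.81) and Slc7a1 (0.38). The transporter that fell was Slc43a1, another carrier of large neutral amino acids (-0.32), a call that was absent without OHT replicate 2.

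Cytosolic aminoacyl-tRNA synthetases, which load tRNAs with amino acids, rose in 10 of 21 tested members (47.6%) by small amounts, with a median of 0.15. The largest was Cars, the cysteinyl enzyme, at 16.1, 18.4 and 18.1 RPKM in OHT and at 23.0, 23.4 and 22.7 RPKM in OHT_IACS (log2 fold change 0.39, adjusted p = 0.00022). Lars rose by 0.32 and Aars by 0.29. Several synthetases stood between -0.13 and 0.07 without passing the test, among them Rars, Qars, Hars, Kars and the nuclear exporter Xpot. OHT replicate 2 lay at -0.10 for the median of this list relative to the mean of the OHT libraries, and without it 9 members rose and 3 fell.

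The composite element of C/EBP and ATF factors, through which ATF4 acts, has the core letters TGATGNAA. It was searched on both strands of RefSeq promoters (GRCm38.p6, from 250 bases before to 50 bases after each start). It was present in 3.97% of all 32851 promoters, in a promoter of 2.67% of 7803 tested genes that could be matched, of 6% of 934 genes that rose and of 1.52% of 922 genes that fell. Over the ISR, amino acid and tRNA synthetase lists it was found for 15 of 60 matched genes (25%), and among the 31 matched members of these lists that rose for 13 (41.9%). The stretches shown are those that hold the element before the start in list members with large or preselected changes, printed 5′ to 3′ on the strand of the gene with the element, or its reverse complement, in capitals.

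Nupr1, chr7:126625547-126625606, minus strand: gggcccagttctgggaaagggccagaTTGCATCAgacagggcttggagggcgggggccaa

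Pck2, chr14:55540137-55540196, plus strand: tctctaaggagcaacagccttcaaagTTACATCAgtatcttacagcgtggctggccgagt

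Pycr1, chr11:120643818-120643877, minus strand: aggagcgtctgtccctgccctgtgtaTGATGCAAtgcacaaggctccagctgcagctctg

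Slc7a11, chr3:50443646-50443705, minus strand: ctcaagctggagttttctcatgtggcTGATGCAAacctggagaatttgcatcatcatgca

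Aars, chr8:111033704-111033763, plus strand: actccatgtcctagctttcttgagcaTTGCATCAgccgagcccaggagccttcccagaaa

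Asns, chr6:7693210-7693269, minus strand: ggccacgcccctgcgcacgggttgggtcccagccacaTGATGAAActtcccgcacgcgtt

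The stretch of Slc7a11 also holds the element again on the opposite strand, beginning 47 bases before the start. These 6 genes rose by 0.29 (Aars) to 1.36 (Nupr1) on the log2 scale. They were taken up for their large calls or as fixed names, so that their rise is no added result. Other members named in this way, among them Trib3, Atf5, Ddit3 and Gpt2, gave no stretch to show. A match in letters is a description and not a measured site. The E-box CACGTG, the element of MYC and MAX, was present in 10.6% of matched genes that rose, 14.1% of those that fell and 12.3% of all tested, and the sterol element TCACNCCAC in 1.5%, 1.52% and 1.35%.

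Sterol biosynthesis fell almost throughout: 18 of 19 tested enzymes (94.7%) were DEGs that fell, beside 11.8% of all genes tested, and the median log2 fold change was -0.32. The fall ran along the pathway, from the mevalonate steps Mvk (-0.27), Pmvk (-0.49) and Mvd (-0.51), through the squalene steps Fdft1 (-0.32) and Sqle (-0.29), to the ring enzymes Lss (-0.54) and Cyp51 (-0.54) and the late step Dhcr7 (-0.61). Dhcr7 stood at 8.18, 9.85 and 9.33 RPKM in OHT and at 5.13, 6.08 and 6.72 RPKM in OHT_IACS, with an adjusted p of 0.0016. Cyp51, the lanosterol demethylase, was measured at 25.9, 24.9 and 26.6 RPKM against 18.2, 17.4 and 17.4 RPKM (adjusted p = 1.2e-05). In both genes the groups did not overlap. The member that did not pass the test was Tm7sf2 (0.06). All 18 calls were also made without OHT replicate 2. The sterol element was in none of the 14 matched promoters of these enzymes.

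The regulators and sterol transport genes around the pathway changed in both directions. Of 16 tested members 5 fell and 2 rose (31.2% and 12.5%, beside 11.8% and 11.9% of all genes). Insig1, which retains the SREBP complex in the endoplasmic reticulum and is itself an SREBP target, fell from 25.4, 26.5 and 27.4 RPKM to 15.1, 15.7 and 15.1 RPKM, a log2 fold change of -0.79 (standard error 0.04, adjusted p = 1.4e-07). Insig2 fell by 0.30, the sterol carrier Stard4 by 0.23 and Srebf2, the SREBP of the sterol branch, by 0.17. The cholesterol exporters went the other way, with rises of 0.78 for Abcg1 (adjusted p = 3.3e-05) and 0.66 for Abca1, the latter at 0.61 ± 0.16 RPKM in OHT (SD, n = 3) and with an adjusted p of up to 0.11 over the alternatives (limma). Srebf1 (0.03), Scap (0.11) and the proteases Mbtps1 (0.02) and Mbtps2 (0.07) did not pass the test. Of 12 fatty acid synthesis genes 3 fell, the elongases Elovl6 (-0.49) and Elovl5 (-0.23) and the desaturase Scd2 (-0.24), Acss2, which makes acetyl-CoA from acetate, rose (0.21), and without OHT replicate 2 the number that fell was 6.

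**Figure D3:**
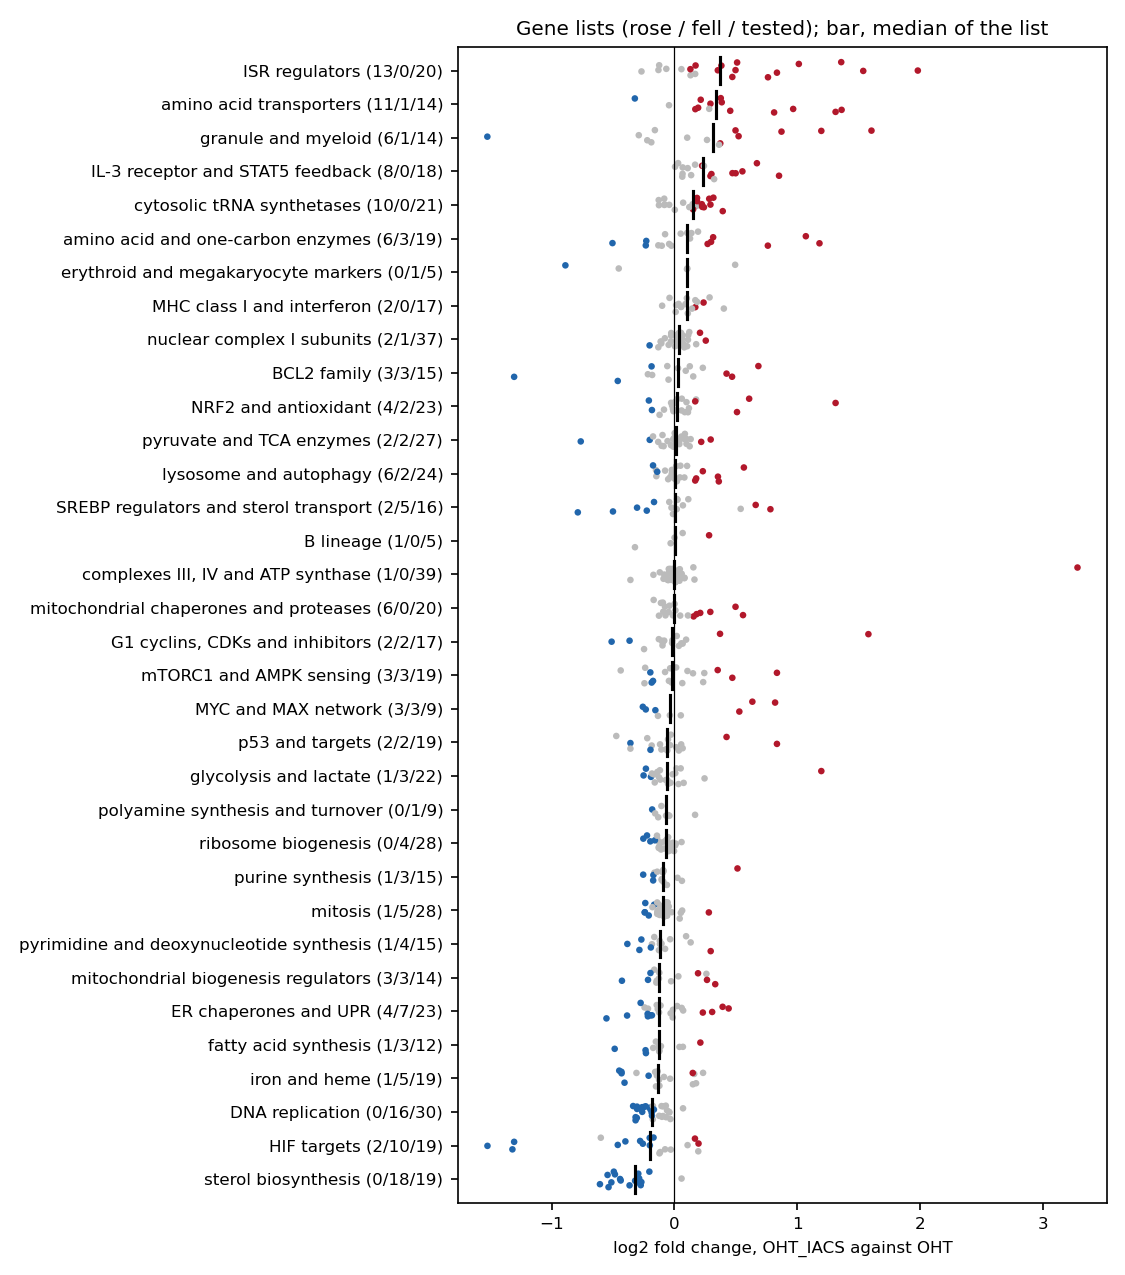
Log2 fold change in OHT_IACS against OHT (horizontal axis) of the tested members of each gene list with at least 5 of them, with DEGs that rose in red, DEGs that fell in blue and other members in grey. Labels give the numbers that rose, fell and were tested, black bars mark the medians, and the lists run from ISR regulators at the top (median 0.37) to sterol biosynthesis at the bottom (-0.32).

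In a list of targets and regulators of the hypoxia-inducible factors (HIFs), 10 of 19 tested members fell (52.6%) and 2 rose. HIF alpha subunits are hydroxylated by prolyl hydroxylases in the presence of oxygen and degraded through VHL. The hydroxylase genes Egln3 and Egln1 are HIF targets themselves. Hif1a, Egln2 and Vhl are in the list as regulators. Egln3 had the largest fall, from 8.07, 10.3 and 9.19 RPKM to 3.23, 3.23 and 2.92 RPKM, a log2 fold change of -1.52 (standard error 0.11, adjusted p = 1.2e-06). Bnip3, a mitochondrial mitophagy receptor, stood at 33.6, 34.1 and 36.5 RPKM in OHT and at 12.4, 15.8 and 14 RPKM in OHT_IACS, and the log2 fold change was -1.30 (standard error 0.09, adjusted p = 6e-07). Ankrd37 fell by 1.32 (adjusted p = 0.0014) at no more than 3 RPKM. None of these 3 genes overlapped between the groups. Smaller falls were those of Bnip3l (-0.46), Egln1 (-0.40), Higd1a (-0.28), Mxi1 (-0.26), Pdk1 (-0.20), P4ha1 (-0.20) and Vhl (-0.17). The rises were Vegfa (0.20) and Bhlhe40 (0.17), and Hif1a itself (-0.03) did not pass the test.

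Glycolysis and lactate genes showed few calls, with 3 of 22 lower (13.6%, beside 11.8% of all genes) and 1 higher. The number lower was 5 without OHT replicate 2 or 6 with the library total as covariate. The glucose transporter Slc2a1 fell by 0.25 (adjusted p = 0.0017), the phosphofructokinase Pfkm by 0.23 with overlapping groups and the glucose transporter Slc2a3 by 0.19. The rise was that of Hk3, a hexokinase of myeloid cells (1.20). Txnip, which the glucose sensor MondoA induces and which restrains glucose uptake, fell from 36.3, 36.2 and 38.7 RPKM to 24.0, 23.9 and 23.9 RPKM (log2 fold change -0.63, adjusted p = 3.1e-06), without overlap. Mlx, the partner of MondoA, fell by 0.23 and Mlxip, which encodes MondoA, did not pass the test (0.19), but rose without OHT replicate 2. Arrdc4 was listed at 0 reads.

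Genes of the respiratory chain itself mostly did not pass the test. Of 37 nuclear genes for complex I subunits, 2 rose and 1 fell, at a median log2 fold change of 0.04. These were Ndufb2 (0.26), Ndufs5 (0.21) and Ndufv3 (-0.20), with adjusted p of 0.039, 0.025 and 0.016 and none called under every alternative. Of 39 genes of complexes III and IV and the ATP synthase, Cox6a2 alone passed. Cox6a2, a subunit of cytochrome c oxidase known from heart and skeletal muscle, had 1, 6 and 2 reads in the OHT libraries and 27, 35 and 30 reads in the OHT_IACS libraries. The RPKM were 0.146, 0.652 and 0.282 against 3.44, 4.5 and 3.86, the largest rise among the named genes of at least 2 RPKM on average. The log2 fold change was 3.28 (standard error 0.31, limma, adjusted p = 1.2e-05), or 1.87 with a pseudocount of 1. Cox6a2 met the filter and this average only through the libraries with the inhibitor, since its mean was 0.143 RPKM in untreated and 0.36 RPKM in OHT cells. OHT replicate 2 had lower values than OHT replicates 1 and 3 in these lists, with median differences of -0.23 for complex I and -0.33 for the other complexes. Without it 1 complex I gene rose and 5 fell, and 3 genes of the other complexes fell. Mitochondrial proteases and chaperones rose in 6 of 20 members (30%), led by the inner membrane proteases Spg7 (0.56, adjusted p = 0.00034), Oma1 (0.50) and Afg3l1 (0.29) and followed by Trap1 (0.21), Dnaja3 (0.18) and Lonp1 (0.16). The import and folding genes Hspd1, Hspe1, Tomm20 and Timm23 stood between -0.09 and -0.07 and did not pass. Without OHT replicate 2 the numbers of this list were 6 higher and 5 lower.

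Of 27 enzymes of pyruvate and the TCA cycle, 2 rose and 2 fell, and without OHT replicate 2 the number that fell was 5. Idh1, the cytosolic isocitrate dehydrogenase that makes NADPH, fell from 10.4, 11.1 and 11.7 RPKM to 7.06, 6.12 and 6.3 RPKM (log2 fold change -0.76, adjusted p = 7.7e-05). Pcx, which makes oxaloacetate from pyruvate, rose by 0.30 and Suclg2 by 0.22, and Pdk1 fell by 0.20. Among regulators of mitochondrial biogenesis, Tfb2m, a mitochondrial transcription factor, fell by 0.43 (adjusted p = 0.00028), Gabpa by 0.21 and Peo1, the mitochondrial helicase, by 0.20. Gabpb1 (0.33), Pprc1 (0.27) and Ucp2 (0.19) rose. Of these 14 regulators 3 fell, or 5 without OHT replicate 2. Ppargc1a was listed at no more than 1 read and Ucp1 at 0 reads.

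In the MYC and MAX network 3 of 9 tested members rose and 3 fell (33.3% each, beside 11.9% and 11.8% of all genes). The mRNAs of the MYC family members Myc and Mycn rose, with MycER active in both groups. Myc stood at 19.3, 22.5 and 21.2 RPKM in OHT and at 28.4, 30.9 and 31.6 RPKM in OHT_IACS, a log2 fold change of 0.53 (standard error 0.05, adjusted p = 2.4e-05). Mycn rose from 18.9, 19.95 and 17.5 RPKM to 31.3, 34.4 and 33.9 RPKM, by 0.82 (adjusted p = 7.8e-07). Neither gene overlapped between the groups. Whether the retroviral MycER adds reads to the Myc value was not tested. In the rest of the network Mxd4, an antagonist of MYC, rose by 0.63 (0.36 without OHT replicate 3, with an adjusted p of 0.12), and Mxi1, Mlx and Max, the dimerization partner of MYC, fell by 0.26, 0.23 and 0.15. Genes of ribosome biogenesis, a process that MYC drives, had a median of -0.07 with 4 of 28 members lower and none higher. The 4 (14.3%, beside 11.8% of all genes) were Polr1e, Polr1b, Rrn3 and Nat10 at -0.25 to -0.16. Without OHT replicate 2, where this list stood at -0.12 relative to the mean of the OHT libraries, 12 members fell.

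Genes of DNA replication fell in 16 of 30 members (53.3%) with a median of -0.18, and none rose. The falls were small and spread over the machinery, with Orc1 (-0.32), Orc6 (-0.25) and Cdc6 (-0.26) of origin licensing, Gins1, Gins2, Gins3 and Gins4 (-0.31 to -0.26) and Cdc45 (-0.20) of the replicative helicase, and Rfc3 (-0.34), which loads the sliding clamp. Prim1, the primase, was measured at 27.9, 26.7 and 29.3 RPKM in OHT and at 22.1, 22.2 and 23.1 RPKM in OHT_IACS, without overlap (log2 fold change -0.32, adjusted p = 0.00055). Of the enzymes that supply deoxynucleotides, Rrm2, the ribonucleotide reductase subunit, fell by 0.38 (43.8, 43.4 and 45.7 RPKM against 34.0, 33.9 and 33.8, adjusted p = 6.9e-05), Tk1 by 0.29 and Tyms by 0.19, while Ctps2 rose by 0.30, a call that was absent without OHT replicate 2 (limma, adjusted p = 0.073). In the list of pyrimidines and deoxynucleotides 4 of 15 members fell (26.7%, beside 11.8% of all genes) and 1 rose. In purine synthesis 3 of 15 members fell (20%), Prps2, Ppat and Gmps by 0.25, 0.17 and 0.17, and Adssl1 alone rose, by 0.51. The 1 polyamine gene of 9 that fell (11.1%, beside 11.8% of all genes) was Amd1 (-0.18). Without OHT replicate 2 the numbers that fell were 9 instead of 4 for pyrimidines and deoxynucleotides, 11 instead of 3 for purines and 3 instead of 1 for polyamines, and 19 for DNA replication. In these pooled cell populations, fewer cells in S phase and less of an mRNA per cell cannot be told apart.

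Of 17 G1 cyclins, CDKs and inhibitors 2 rose and 2 fell, at a median of -0.02. These shares (11.8% each) were those over all genes (11.9% and 11.8%). The E cyclins were the members that fell, Ccne2 by 0.51 (9.44, 8.15 and 8.34 RPKM against 5.51, 6.35 and 6.25, adjusted p = 0.0016) and Ccne1 by 0.36. Cdk6 rose by 0.37 (limma, adjusted p = 0.00081). Cdkn2b, an inhibitor of CDK4 and CDK6, rose by 1.58 (limma, adjusted p = 0.0024), or 0.81 with a pseudocount of 1. Its level went from 0.49 ± 0.22 to 1.66 ± 0.73 RPKM (SD, n = 3). Cdkn2b stayed under 1 RPKM in every untreated and OHT library and met the filter only through the libraries with the inhibitor. In mitosis 5 of 28 genes fell, Cdc25c, Aurka, Kif20a, Kif23 and Bub1 at -0.24 to -0.17, and Cdc25b rose by 0.28, with 13 lower without OHT replicate 2. Ccng2, a cyclin of quiescent cells, fell most after Egln3 among the named genes of at least 2 RPKM on average, from 4.89, 6.32 and 4.5 RPKM to 1.74, 2.22 and 1.95 RPKM (log2 fold change -1.36, standard error 0.14, adjusted p = 3.1e-05), without overlap.

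**Figure D4:**
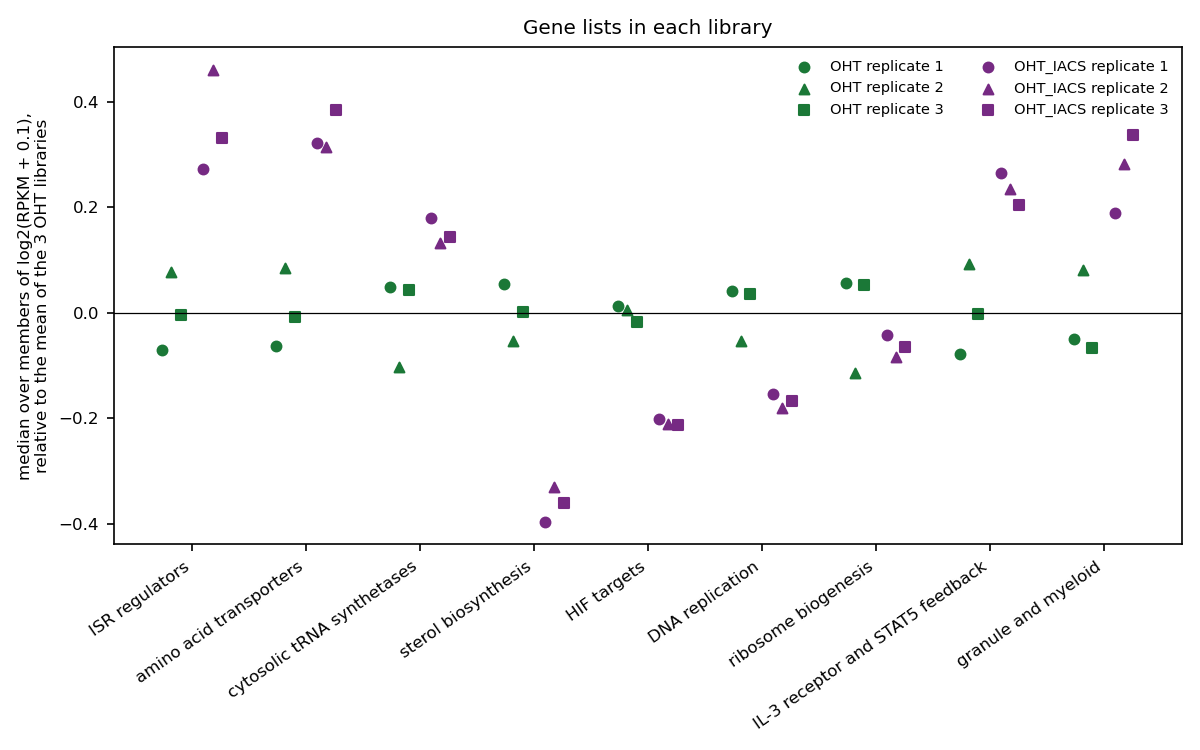
Median over the tested members of 9 gene lists of log2(RPKM + 0.1) in each library, relative to the mean of the 3 OHT libraries (vertical axis), for OHT (green) and OHT_IACS (purple) replicates 1, 2 and 3. Sterol biosynthesis lay at -0.40 to -0.33 in the OHT_IACS libraries and ISR regulators at 0.27 to 0.46, whereas for ribosome biogenesis OHT replicate 2 (-0.12) lay below all 3 OHT_IACS libraries (-0.08 to -0.04).

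In the BCL2 family, which sets the threshold of mitochondrial apoptosis, 3 of 15 tested members rose and 3 fell. These are 20% each, beside 11.9% and 11.8% of all genes. Bcl2, the anti-apoptotic protein that venetoclax blocks, stood at 13.1, 15.5 and 14.2 RPKM in OHT and at 19.4, 20.2 and 19.5 RPKM in OHT_IACS. All OHT_IACS libraries lay above all OHT libraries, and the log2 fold change was 0.47 (standard error 0.05, adjusted p = 2.2e-05). Mcl1, another anti-apoptotic member, fell from 41.7, 39.2 and 41.5 RPKM to 36.7, 36.2 and 34.6 RPKM, by 0.19 (adjusted p = 0.018, up to 0.076 over the alternatives, limma). Bcl2l1, which encodes BCL-XL, had a log2 fold change of 0.09 and did not pass the test (adjusted p = 0.22), with RPKM of 13.97, 15.5 and 15.8 against 15.5, 16.9 and 15.7. Bcl2a1b rose by 0.68 at 0.61 ± 0.20 RPKM in OHT (SD, n = 3), and since it has near-identical copies its value is uncertain.

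Of the pro-apoptotic members, Bbc3, which encodes PUMA, rose from 5.8, 6.02 and 4.46 RPKM to 6.8, 8.27 and 6.78 RPKM, by 0.42 (standard error 0.11, adjusted p = 0.012), with an adjusted p of 0.052 (limma) without OHT_IACS replicate 2. Bcl2l11, which encodes BIM, was measured at 1.09, 1.27 and 1.36 RPKM against 1.2, 1.07 and 0.973 RPKM with overlapping groups (log2 fold change -0.18, standard error 0.14, adjusted p = 0.38). The effectors Bax (-0.06) and Bak1 (-0.05) did not pass the test. The members that fell beside Mcl1 were Bnip3 and Bnip3l, as given for the HIF targets. Pmaip1, which encodes NOXA, was listed at 0 reads and Hrk at no more than 1 read. Among p53 and its targets, Sesn2 (0.83) and Bbc3 rose and Phlda3 (-0.36) and Aen (-0.20) fell, out of 19. That is 10.5% in each direction, near the shares over all genes (11.9% and 11.8%). Of 19 genes of mTORC1 and AMPK sensing 3 rose and 3 fell (15.8% each, beside 11.9% and 11.8% of all genes), at a median of -0.02. The rises were Sesn2, Ddit4 (0.47) and Tsc2 (0.35), and the falls were the AMPK subunits Prkaa1 (-0.20) and Prkag1 (-0.17) and the upstream kinase Stk11 (-0.18).

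Genes of the endoplasmic reticulum split. Of 23 members 7 fell, among them the chaperone cofactors Creld2 (-0.55), Sdf2l1 (-0.39) and Dnajc3 (-0.28), while 4 rose, the stress sensors Ern1 (0.44) and Atf6 (0.31), Herpud1 of ER-associated degradation (0.39) and Xbp1 (0.23). Creld2 stood at 19.1, 18.9 and 18.7 RPKM against 12.2, 14.2 and 12.2 RPKM (adjusted p = 6.3e-05). Hspa5, the main chaperone of the organelle, did not pass the test (-0.24). Without OHT replicate 2, 12 members fell. In the NRF2 and antioxidant list 4 of 23 members rose and 2 fell (17.4% and 8.7%, beside 11.9% and 11.8% of all genes). The rises were Slc7a11, Cat, the catalase (0.61, limma, adjusted p = 1e-06), Nqo1 (0.51) and Sqstm1 (0.17). Nfe2l2, which encodes NRF2 itself (-0.21), and Sod2 (-0.18) fell, and Gpx1 did not pass (0.08). In iron and heme metabolism 5 of 19 genes fell, the importer Slc11a2 (-0.45), the transferrin receptor Tfrc (-0.43) and the iron sensor Ireb2 (-0.43) among them, as well as the heme enzymes Ppox (-0.41) and Cpox (-0.21). The mitochondrial iron carrier Slc25a28 rose by 0.15, and without OHT replicate 2 the number that rose was 2. Of 24 lysosome and autophagy genes 6 rose, among them Wipi1 (0.57) and the calcium channel Mcoln1 (0.36), and 2 fell. Wipi1 stayed under 1 RPKM in every untreated and OHT library and met the filter only through the libraries with the inhibitor.

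Genes of IL-3 signalling, on which these cells depend, rose in 8 of 18 members (44.4%), and all 18 had a log2 fold change above 0. Il3ra, the alpha chain of the receptor, went from 5.116, 6.73 and 5.93 RPKM to 9.03, 9.78 and 9.49 RPKM, without overlap (log2 fold change 0.67, standard error 0.08, adjusted p = 0.0001). The feedback inhibitors Dusp6 (0.85, adjusted p = 7.8e-07), Socs1 (0.55, adjusted p = 0.0023) and Cish (0.47) rose, as did the kinase Pim1 (0.30), the beta chain Csf2rb2 (0.23) and the cytokines Lif (0.50) and Osm (0.29). Stat5a (0.14) and Stat5b (0.03), which carry the signal, and Jak2 (0.17) did not pass the test. Csf2rb2 has a close relative in Csf2rb (0.07), so that their values are uncertain.

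Granule and myeloid genes rose in 6 of 14 members (42.9%), with 1 lower, or 2 lower without OHT replicate 2. Gzmb, which encodes the protease granzyme B, rose most, from 15.04, 16.9 and 15.8 RPKM to 44.0, 50.7 and 50.9 RPKM, a log2 fold change of 1.60 (standard error 0.06, adjusted p = 2.7e-09). Hk3 rose from 3.53, 3.8 and 3.49 RPKM to 7.4, 9.54 and 8.32 RPKM (adjusted p = 4.7e-07), and Cfp, which encodes properdin of the complement system, by 0.87 (adjusted p = 1.2e-05). None of the 3 overlapped. The receptor adapters Tyrobp (0.52) and Fcer1g (0.50) and the protease Ctsg (0.37) also rose. Mpo (-0.16), Prtn3 (-0.19), Cebpe (-0.22) and S100a8 (-0.29) did not pass the test, Elane was listed at no more than 2 reads, and Ngp went from at most 4 reads to 0. The summed RPKM of the 20 listed genes was 117 to 130.0 in OHT and 161 to 184 in OHT_IACS. In the other cell type lists Cpa3, a protease of mast cells, rose from 4.05, 4.39 and 5.75 RPKM to 11.1, 13.6 and 14.2 RPKM (log2 fold change 1.44, adjusted p = 4.8e-06), while Kit, Tpsb2 and Ms4a2 of the same list were at 0 reads. Of 2 tested T and NK markers, Cd3g alone had a log2 fold change above 0, and the other was not called. Cd3g rose by 0.56 at 11 to 21 reads in the 6 libraries, with Cd3e at 0 reads. Klf1, an erythroid factor, fell by 0.89 (9.05, 10.2 and 9.32 RPKM against 4.92, 5.47 and 4.92, limma, adjusted p = 4.7e-07). Klf1 was 1 of 5 tested erythroid and megakaryocyte markers, of which the other 4 did not pass the test, at Epor (-0.45), Gp1ba (0.10), Itga2b (0.10) and Hbb-b1 (0.49, uncertain because of near-identical copies), and the median was 0.10. Of these markers 1 rose without OHT replicate 2. The summed RPKM was 46.8 to 48.4 in OHT and 45.5 to 50.1 in OHT_IACS for B lineage genes, of which Ikzf1 rose by 0.28, 2.06 to 2.34 against 2.65 to 2.87 for T and NK markers and 25.8 to 29.8 against 23.5 to 25 for erythroid markers. Of 17 genes of antigen presentation and interferon response, Tapbp (0.24) and Tap2 (0.17) rose (11.8%, beside 11.9% of all genes). Whether a change in the share of other cells takes part in these values was not tested.

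Of the genes outside the lists with the largest rises, Extl1, a glycosyltransferase of heparan sulphate synthesis, went from 0.398, 0.732 and 0.429 RPKM to 3.57, 4.26 and 3.44 RPKM, a log2 fold change of 2.67 (standard error 0.17, adjusted p = 4.5e-07), or 1.65 with a pseudocount of 1. Aqp9, a channel for water and glycerol, rose from 4.46, 5.92 and 5.34 RPKM to 22.7, 23.7 and 21.7 RPKM, by 2.10 (standard error 0.08, adjusted p = 3.4e-09). Il16 rose by 1.56, Fam129a by 1.44, the tetraspanin Cd82 by 1.43 and the glutathione transferase Gsta4 by 1.41. Extl1, Il16 and Gsta4 had means under 2 RPKM in untreated and in OHT cells. They met the average of 2 RPKM for naming only through the libraries with the inhibitor. Falls of this kind were smaller. Klf10, a zinc finger repressor, fell by 0.98 (5.41, 6.68 and 5.43 RPKM against 3.31, 2.67 and 2.76, adjusted p = 0.00011) and the ubiquitin ligase Trim59 by 0.85 (adjusted p = 0.00016). The others were the transcripts 1700037C18Rik (-0.90), 1700092M07Rik (-0.87), 9230114K14Rik (-0.79), 3110057O12Rik (-0.77) and D3Ertd751e (-0.77), of about 1 to 6 RPKM each. By the rule for naming, none of these genes had overlapping groups. Only 8 DEGs had at most 3 reads in every library of a group, among them 7 microRNA and small nucleolar RNA genes and Ngp, and no fold is given for them.

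The response was then set beside that of nonprimed cells, IACS against untreated, which shares no library with it. Of the 2310 DEGs, 2103 had a log2 fold change of the same sign in nonprimed cells. No share over all genes tested is set beside this count. List medians in primed and nonprimed cells were 0.37 and 0.40 for ISR regulators, 0.34 and 0.37 for amino acid transporters and 0.15 and 0.27 for tRNA synthetases. They were -0.32 and -0.44 for sterol biosynthesis and -0.20 and -0.18 for HIF targets and regulators. They were 0.23 and 0.05 for IL-3 signalling and 0.31 and 0.09 for granule and myeloid genes. The interaction, which tests the difference between the responses gene by gene, called 14 of 9745 genes (0.144%), all with a higher value in OHT-primed cells, and 1240 at an unadjusted p under 0.05.

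Gzmb was the clearest, with RPKM of 21.8 ± 0.66 in untreated, 32.7 ± 1.09 in IACS, 15.9 ± 0.91 in OHT and 48.5 ± 3.94 in OHT_IACS cells (SD, n = 3). It had the lowest level of the 4 groups in OHT and the highest in OHT_IACS. Hk3 stood at 15.3 ± 0.74, 17.4 ± 1.70, 3.61 ± 0.17 and 8.42 ± 1.08 RPKM in the same order, so that its level in OHT_IACS was below both groups without OHT. Il3ra was at 7.62 ± 0.81, 7.67 ± 0.07, 5.93 ± 0.81 and 9.44 ± 0.38 RPKM, with a log2 fold change of -0.01 in nonprimed cells. Of the 14, Gzmb, Hk3 and Cfp are in the granule and myeloid list, which was made with earlier results of these data known. Their number there is therefore no added result. Hk3 is also in the glycolysis list, and Mycn, Cat and Il3ra are in the MYC network, antioxidant and IL-3 lists. No ISR, sterol or BCL2 family member was called, which says little at 0.144% called over all genes. Differences of ISR members ran from -0.425 for Trib3 and -0.406 for Ddit3 to 0.382 for Jdp2 (limma, adjusted p = 0.26, 0.13 and 0.14). The difference subtracts the level with OHT alone, which was below the untreated level in 12 of the 14 genes. The number called was 149 without OHT replicate 2, 3 without OHT replicate 3, OHT_IACS replicate 3 or untreated replicate 1, 4 without OHT_IACS replicate 1, and 6 to 8 without untreated replicate 2 or 3, OHT replicate 1 or any IACS library.

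**Figure D5:**
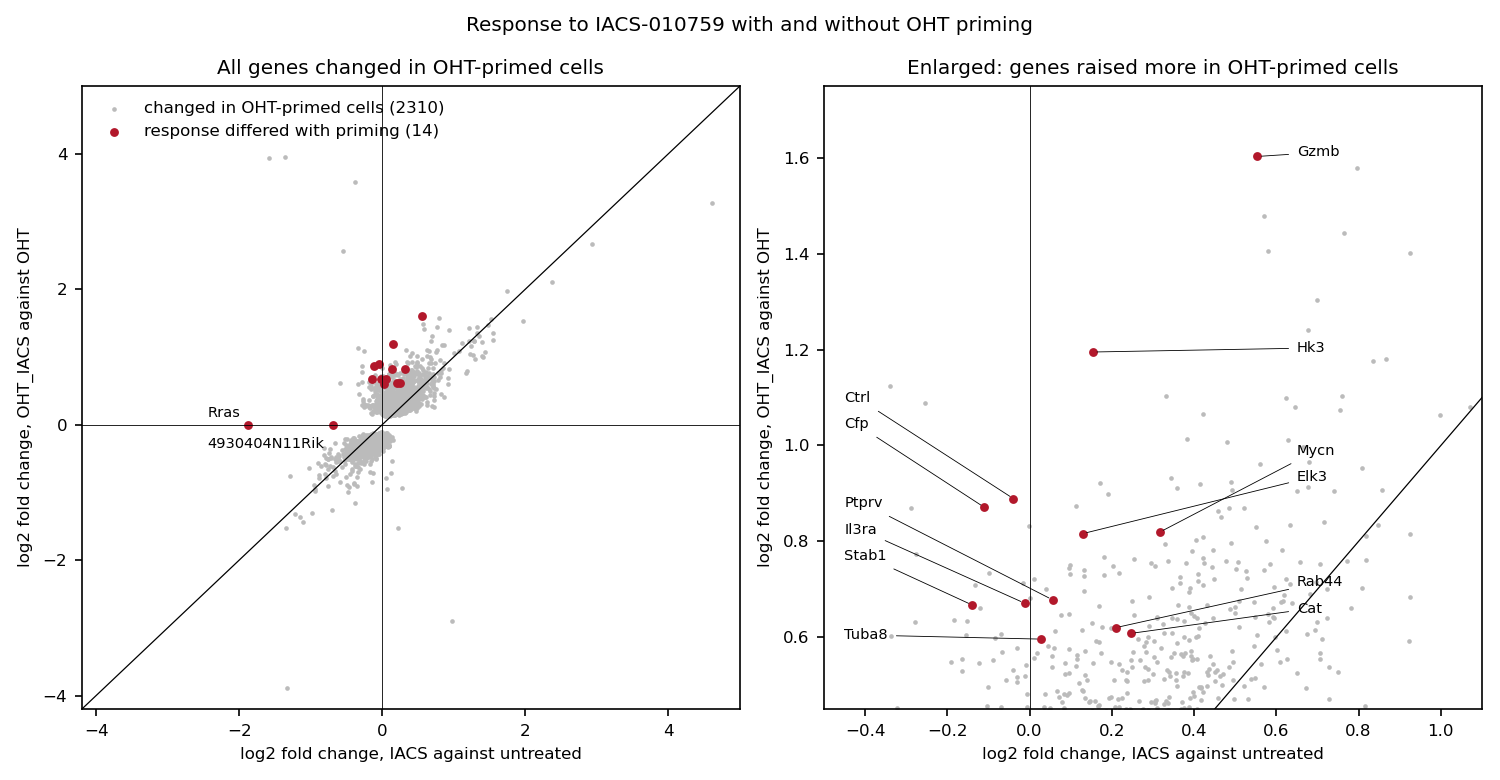
Log2 fold change in OHT_IACS against OHT (vertical axis) plotted on that in IACS against untreated (horizontal axis) for the 2310 DEGs of OHT-primed cells in grey and the 14 genes whose response differed in red, over the whole range (left) and enlarged (right), with the line of equal responses. All 14 lie above the line, 12 of them as rises in OHT-primed cells, while Rras and 4930404N11Rik stand near 0 in OHT-primed cells and below 0 in nonprimed cells.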

How the data were processed

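RNA-seq with ribosomal RNA removed was measured in 12 libraries, 3 per group. The authors deposited RPKM values per gene. The submitters' processing notes name mm9, TopHat2 2.0.8, SAMtools, featureCounts 1.4.5-p1 and DESeq2. The table also holds the authors' own log2 fold changes and adjusted p-values in 6 columns, which were not used. No counts were used as the main measure. Library totals and reads were recovered from the spacing of the deposited RPKM values (all 15451 genes examined gave whole reads within 1e-04) and served for depth and the checks.

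RPKM were scaled by the median ratio to the geometric mean (factors 0.9735 to 1.0261), and log2(RPKM + 0.1) was fitted with limma 3.58.1 (R 4.3.3) over 12 libraries with 4 group means and a mean-variance trend. P-values were two-sided and Benjamini-Hochberg adjusted over 9745 genes, with a threshold of 0.05. Log2 fold changes are on that scale and understate changes of low genes. Overlap of groups was judged on scaled values, and printed RPKM are as deposited. Tables came from pandas 2.3.3 and numpy 2.4.6 under Python 3.11.15, and plots from matplotlib 3.10.9. In simulated data 200 genes had a log2 change of 1 in OHT_IACS, and all genes shared the same dispersion without an outlying library. There 188 of the 200 changed genes and 7 of 9545 unchanged genes were called for OHT_IACS against OHT. Recovery of smaller changes, such as the median of 0.30 among the DEGs, was not tested. Promoters of GRCm38.p6, another build than that of the files, were matched by gene symbol. The labels call the samples biological replicates but do not name separate cultures, so p-values measure the spread between these libraries. Same-numbered libraries had correlations of deviations of -0.172 to 0.104, so that the numbers do not pair them.

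Genes were named by rule: the 12 largest rises and falls without overlap at a mean of at least 2 RPKM, up to 3 largest changes per list, the 5 smallest interaction p-values and fixed names. Members of lists named beyond these were chosen after their values were seen. The members and lists were chosen with earlier results of these data known. Alternatives covered the pseudocount, filter, scaling, variance model, depth, replicate block and each library left out. Some items are not reported here.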

Additional observations from a re-analysis of the deposited data

Results flagged for a closer look

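Each of the 14 genes called by the interaction (limma, Benjamini-Hochberg adjusted p under 0.05) responded differently to IACS-010759 in OHT-primed and in nonprimed cells, and the values are the log2 response in primed minus that in nonprimed cells. The differences were 1.049 for Gzmb (adjusted p = 6.7e-05), 1.041 for Hk3 (adjusted p = 0.0015) and 0.981 for Cfp (adjusted p = 0.0035), and these 3 genes kept an adjusted p under 0.05 in every alternative that was run. For Tuba8, an alpha tubulin, the difference was 0.568 (adjusted p = 0.012), with 42.7 RPKM in untreated, 44.5 in IACS, 21.4 in OHT and 32.4 in OHT_IACS cells. For Stab1, a scavenger receptor, it was 0.807 (adjusted p = 0.015), with 1.5, 1.38, 3.21 and 5.15 RPKM in the same order.

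For Mycn (0.502), Elk3 (0.687), Rras (1.865) and 4930404N11Rik (0.688) the adjusted p was 0.039. Rras did not pass the test in primed cells (-0.01 on the log2 scale), and its difference rests on 3, 2 and 1 reads in the IACS libraries. The remaining genes were close to the threshold, at 0.045 to 0.047. They were Cat (0.361), Il3ra (0.682), Rab44 (0.41), Ctrl (0.928), at 0.829 RPKM in OHT, and Ptprv (0.622). Of the 14 genes, 12 had a lower mean in OHT than in untreated cells, and the exceptions were Rras and Stab1. The same OHT libraries enter the difference, and their part in it was not tested.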

How the results depend on the processing

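The number of DEGs in OHT-primed cells (2310) ran from 1591 with the 6 libraries of the contrast alone to 2778 with the library total as covariate, and from 1521 to 2995 when 1 library was left out. The number called by the interaction (14) was 5 with RPKM as deposited, 5 with the library total as covariate, 7 without a filter, 34 with quantile normalization and 25 with voom weights, and 3 to 149 with 1 library left out. Replicate numbers do not pair the libraries, and with the replicate block the numbers were 2256 and 7. The interaction could not be fitted from the OHT and OHT_IACS libraries alone. Of 114 named genes called, 85 were called under each of the 24 alternatives in which they were tested, and no called direction reversed. A stricter filter left some low genes, such as Il16 and Cox6a2, untested. Among 2906 values 170 lost the call and 7 gained it. Psat1, Bax and Bak1, which were not called, changed sign under at least 1 alternative. The calls lost under at least 1 alternative included Scd2, Pfkm, Pprc1, Polr1e, Polr1b, Rrn3, Ppat, Amd1, Orc1, Cdc25c, Bcl2a1b, Phlda3, Ern1, Wipi1, Ikzf1, Tapbp, Tap2, Cd3g and 9230114K14Rik, with highest adjusted p of 0.051 (Phlda3) to 0.18 (Pfkm, limma). Of 887 list medians, 37 moved by more than the spread. The cause of these shifts was not tested. Depth limits low genes: 61 tested genes had 0 reads in at least 1 of the 6 libraries.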
